A study of Rattus norvegicus with 26 samples.

Results

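The genes examined were the TGF-beta ligands Tgfb1, Tgfb2 and Tgfb3, the receptors Tgfbr1, Tgfbr2 and Tgfbr3, and the intracellular signal carriers Smad2, Smad3, Smad4 and Smad7. They were chosen by name, as the core of the pathway, and are 10 of the 17910 gene IDs with deposited values. All 10 were among the 15595 genes tested, those that averaged 5 normalized counts or more. RNA came from the dentate gyrus (DG), the part of the hippocampus that holds the granule cells, of male F344 rats, with 1 hemisphere and 1 library per rat. The labels give an age of 6 months, which in the paper is the age at the start of treatment. The paper also put all animals through behavioural tests in the weeks after treatment. The Veh group (n = 10) received vehicle by gavage and was part of a study of brain aging. The Dox group (n = 8) received doxorubicin, an anthracycline used in chemotherapy, at 2 mg/kg intraperitoneally once a week for 4 weeks. The Dox + ABT group (n = 8) received the same doxorubicin and the senolytic drug ABT-263, which blocks proteins of the Bcl-2 family, at 12 mg/kg by gavage on 5 consecutive days every other week. No group received ABT-263 without doxorubicin. The comparison of Dox with Veh asked what doxorubicin changed, and the comparisons with Dox + ABT asked how the senolytic altered that.

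TGF-beta ligands are made as latent complexes that matrix and cell-surface proteins hold back until they are activated. A free ligand binds the type II receptor Tgfbr2, which phosphorylates the type I receptor Tgfbr1. That receptor phosphorylates Smad2 and Smad3, which enter the nucleus with Smad4 and switch on targets such as extracellular matrix genes, the cell cycle inhibitor Cdkn1a and the feedback inhibitor Smad7. In the brain the pathway is known for keeping microglia quiescent, for its part in astrocyte and vascular responses, and as one of the signals that senescent cells secrete.

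The windows from 250 bases before to 50 bases after the gene start are shown for Tgfb3 and Tgfb1, the ligands that moved in different comparisons, and for Ccn2, a matrix protein gene long used as a readout of TGF-beta signalling. They are the RefSeq sequences of the GRCr8 build, a later build than the rn6 genome that the values rest on, and all 10 genes had an entry. They are read 5′ to 3′ on the strand of the gene, Tgfb3 at chr6:111456897-111457196 on the minus strand, Tgfb1 at chr1:90324062-90324361 on the plus strand and Ccn2 at chr1:22624565-22624864 on the minus strand.
Tgfb3: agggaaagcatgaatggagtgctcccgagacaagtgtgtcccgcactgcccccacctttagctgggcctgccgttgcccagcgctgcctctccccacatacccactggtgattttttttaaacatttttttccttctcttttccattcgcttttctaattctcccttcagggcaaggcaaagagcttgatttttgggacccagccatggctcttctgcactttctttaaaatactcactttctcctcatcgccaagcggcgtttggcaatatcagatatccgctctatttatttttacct
Tgfb1: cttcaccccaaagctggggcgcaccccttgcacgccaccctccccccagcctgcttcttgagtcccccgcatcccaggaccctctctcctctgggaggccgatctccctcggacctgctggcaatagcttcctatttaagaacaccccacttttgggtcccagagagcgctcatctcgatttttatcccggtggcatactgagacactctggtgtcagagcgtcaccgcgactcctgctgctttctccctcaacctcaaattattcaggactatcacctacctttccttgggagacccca
Ccn2: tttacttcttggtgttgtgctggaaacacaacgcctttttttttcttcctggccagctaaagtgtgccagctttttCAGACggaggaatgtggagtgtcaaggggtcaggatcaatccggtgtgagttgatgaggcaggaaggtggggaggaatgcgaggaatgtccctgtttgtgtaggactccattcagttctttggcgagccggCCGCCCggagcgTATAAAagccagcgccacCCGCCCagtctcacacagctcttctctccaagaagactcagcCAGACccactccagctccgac
Capitals mark matches, on either strand, to the TATA box TATAAA, the GC box GGGCGG, the cyclic AMP response element TGACGTCA, the AP-1 site TGANTCA and the Smad box CAGAC, which did not overlap each other in the windows printed. The Ccn2 window held 5 matches, of which 2 were Smad boxes, 2 were GC boxes and 1 was a TATA box 31 bases before the start. The windows of Tgfb3 and Tgfb1 held none of these motifs. Among 33469 windows of the same length, 50.1% held the Smad box, 33.1% the GC box, 14.2% the TATA box, 7.33% the AP-1 site and 1.83% the cyclic AMP response element. The 11 windows of the 10 genes held 0 Smad boxes, and 7 of them held a GC box. A match is a description of the letters and not a binding site.

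The libraries held an estimated 10126000 to 24291600 reads, and each of the 10 genes rested on at least 50 reads in every library and was at 0 in none. Of the 7 granule cell markers 6 were listed, with a summed level of 9418 to 14719 normalized counts, and 1 of them, Lct, was at 0 in some rats. The median granule cell sum was 13242 for Veh rats, 12948 for Dox rats and 11295 for Dox + ABT rats. Of 5 granule cell markers tested, 1 was lower in Dox + ABT than in Veh at p under 0.01. The CA1 markers Fibcd1, Wfs1 and Mpped1 ranged from 2171 to 22370 in sum, with overlapping groups. Medians of the CA1 sum were 8173, 6678 and 4052 in the same order. None of the 3 CA1 markers passed p under 0.01 in any comparison. The part of these cells in the values of the 10 genes was not tested. The libraries also differed within groups along a first principal component, which held 28.4% of the within-group variance. A gap in its score set 16 low-score libraries (4 Veh, 5 Dox and 7 Dox + ABT) apart from 10 high-score libraries (6 Veh, 3 Dox and 1 Dox + ABT). The share of counts in ribosomal protein genes was 0.620% to 1.22% in the low-score libraries and 1.29% to 2.06% in the high-score libraries. Since these classes were unevenly filled over the groups, values with the score class as a covariate stand beside the results of the genes most tied to it. The score is measured from the mean of each group, so a library is low or high only against its own group. Values under the covariate or within a class are therefore not a like-for-like correction for the score.

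In the Dox group 1 of the 10 genes, Tgfb3, was higher than in Veh at p under 0.01, the threshold of the study, and 0 were lower. Of all genes tested 2.87% were called in this comparison, 1.02% as higher and 1.85% as lower. Between Dox + ABT and Veh 2 genes were called, with Tgfb1 lower and Smad7 higher in Dox + ABT, against 7.84% of all genes (3.89% higher and 3.95% lower). Between Dox and Dox + ABT 2 genes were called, with Tgfb3 higher and Tgfbr1 lower in Dox, against 4.03% of all genes (2.32% higher and 1.71% lower). At an unadjusted p under 0.05 the calls among the 10 were 1, 3 and 3, beside 10.2%, 22.5% and 12.7% of all genes. None of the 10 had an adjusted p under 0.05, which 0.0192%, 0% and 0% of all genes had, and the smallest adjusted p among them was 0.196, 0.110 and 0.100 in the same order. The median log2 fold change of the 10 genes was 0.01, -0.04 and 0.01, beside 0.00 in each comparison for all genes. The 3 comparisons share rats, each group entering 2 of them, so a low or high Dox group moves both of its comparisons.

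**Figure D1:**
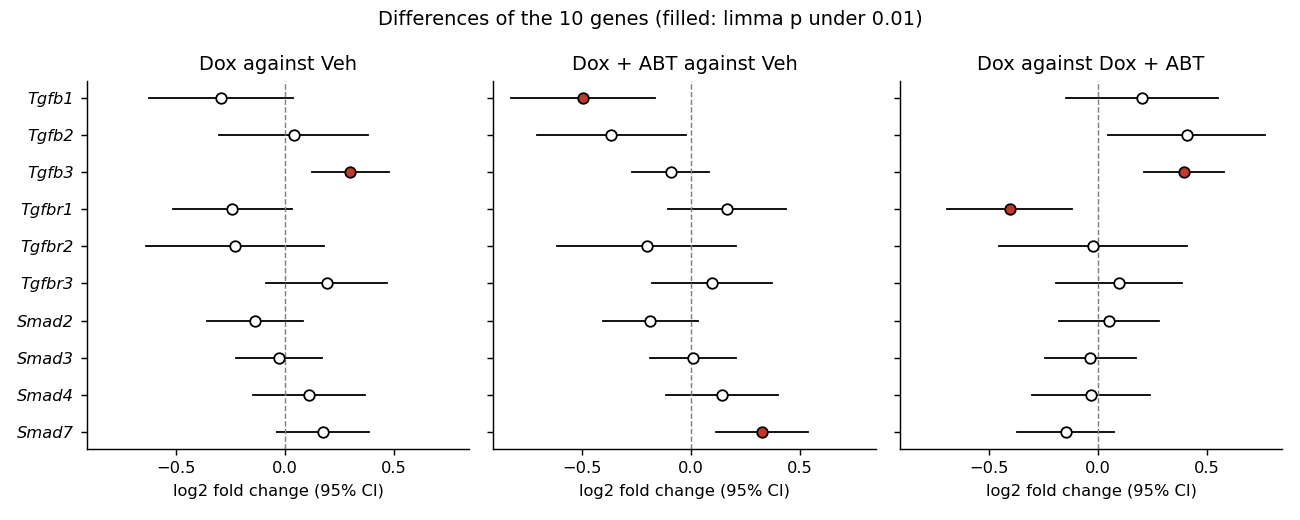
Log2 fold change on the x axis for each of the 10 genes (rows) in the 3 comparisons (panels), with the 95% confidence interval from limma as a line and filled points for p under 0.01. Tgfb3 is filled in both comparisons of the Dox group, and Tgfb1, Smad7 and Tgfbr1 are filled in 1 comparison each.

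Tgfb3, the ligand best known for palate and tissue repair, was the member whose groups were most separated. Its lowest, median and highest levels were 168, 215 and 245 normalized counts in Veh, 231, 255 and 319 in Dox, and 169, 197 and 241 in Dox + ABT. In the Dox group 7 of 8 rats lay above every Veh rat, and 7 of 8 lay above every Dox + ABT rat, while the Veh and Dox + ABT rats overlapped. Such a separation, with at least 7 of 8 rats beyond the range of the other group on 1 side, was found for 0.0962% of all genes in Dox against Veh, for 0.346% in Dox + ABT against Veh and for 0.731% in Dox against Dox + ABT.

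The mean of Tgfb3 was 214 ± 25.9 normalized counts in Veh (SD, n = 10) and 263 ± 27.7 in Dox (n = 8), and the SD in Dox + ABT was 19.8 (n = 8). On the log2 scale Dox was higher than Veh by 0.30 (SE 0.09, 95% confidence interval 0.13 to 0.48, limma p = 0.00155, adjusted p = 0.196), which is 1.23-fold. Dox was higher than Dox + ABT by 0.40 (0.21 to 0.58, limma p = 0.000154, adjusted p = 0.100), or 1.32-fold. Two-sided exact permutation tests over the rats gave p = 0.000754 and p = 0.000311 for these comparisons, without adjustment for the 30 such tests made over genes and comparisons. Dox + ABT and Veh differed by -0.09 (-0.27 to 0.08, limma p = 0.281), so the interval allows a fall of up to 0.27 and a rise of up to 0.08. Tgfb3 is among the genes that the study named for these same rats, so its direction is not independent evidence.

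Tgfb3 varied little with the score of the libraries. The correlation of its within-group deviations with the score was 0.04 over 26 rats, and with the score class as a covariate the difference between Dox and Veh was 0.30 (limma p = 0.00160), while against Dox + ABT it was 0.39 (p = 0.000198). Within the low-score libraries the differences were 0.43 (p = 0.00313) and 0.44 (p = 0.000784). Within the high-score libraries, where 3 Dox rats were set against 6 Veh rats and 1 Dox + ABT rat, they were 0.17 (p = 0.199) and 0.33 (p = 0.123). Leaving out each rat in turn kept both calls. Dox 1 and Dox 2, which also stood apart for several genes below, were the highest of the Dox rats, at 289 and 319, and the other 6 lay at 231 to 259.7. Without both of them, a setting chosen after seeing the data, the difference from Veh was 0.23 and the call was lost (p = 0.0151), while that from Dox + ABT was 0.32 (p = 0.00166). Calls over all genes between Dox and Veh went from 448 to 181 in that setting.

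**Figure D2:**
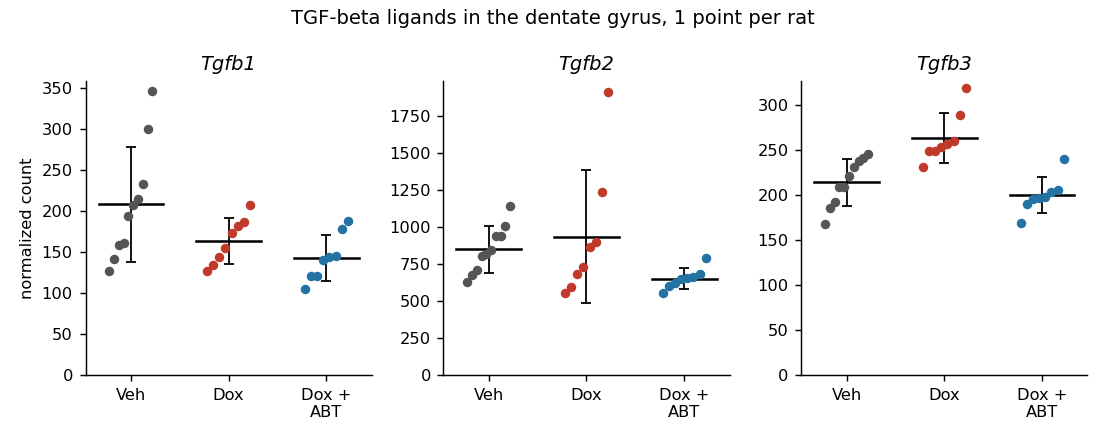
Normalized counts of the 3 ligands on the y axis, with 1 point per rat in Veh (n = 10), Dox (n = 8) and Dox + ABT (n = 8), bars at the mean and whiskers of 1 SD. For Tgfb3, 7 of 8 Dox rats lie above all Veh rats, while for Tgfb2 1 Dox rat reaches 1912.

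Tgfb1, the ligand that microglia and blood-borne cells produce in the brain, was called in another comparison. Its lowest, median and highest levels were 127, 201 and 346 normalized counts in Veh, 127, 164 and 207 in Dox and 105, 142 and 188 in Dox + ABT. All 8 Dox + ABT rats lay below the Veh median and 3 lay below every Veh rat, but the ranges overlapped. The difference between Dox + ABT and Veh was -0.50 (-0.83 to -0.17, limma p = 0.00463, adjusted p = 0.113), or 0.708 times the Veh level, and the exact permutation test, without adjustment, gave p = 0.0161. As a covariate, the planned split at a score of 0 gave a difference of -0.34 (limma p = 0.0186). With the score class as a covariate it was -0.24 (-0.51 to 0.03, p = 0.0742), and within the low-score libraries -0.12 (p = 0.417), so that the call was lost in both. The correlation of Tgfb1 with the score was 0.70, and leaving out any 1 of Veh 9, Veh 12, Dox + ABT 3, Dox + ABT 5 and Dox + ABT 6 also ended the call, with differences of -0.47 to -0.41. Dox and Veh differed by -0.29 (-0.63 to 0.04, p = 0.0801), with -0.17 (p = 0.167) under the covariate. In bulk tissue fewer cells of a type and less RNA per cell cannot be told apart.

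The summed level of the 8 microglial markers ranged from 4215 to 7148 normalized counts in Veh (median 6332), from 4097 to 5909 in Dox (median 5088) and from 4009 to 6546 in Dox + ABT (median 4600), with no marker at 0 in any rat. Of the 8, 4 were lower in Dox than in Veh at p under 0.01, beside 1.85% of all genes, and 3 were called with the score class as a covariate. The log2 differences of 6 were below 0 and those of 2 above. In Dox + ABT 1 was lower than in Veh, beside 3.95% of all genes, and 0 were called with the covariate. All 8 log2 differences lay below 0 in that comparison. Between Dox and Dox + ABT 0 were called, and 2 with the covariate. Their part in the values of Tgfb1 was not tested.

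Tgfb2, the ligand made by neurons and glia, varied most within Dox. Its lowest, median and highest levels were 632, 830.1 and 1139 normalized counts in Veh, 552, 799.6 and 1912 in Dox, and 554, 653 and 790.3 in Dox + ABT. The coefficient of variation was 48.2% in Dox, 18.6% in Veh and 10.6% in Dox + ABT, and the rats Dox 5 (1912) and Dox 7 (1237), both high-score libraries, lay above every Veh rat. Tgfb2 was not called in any comparison in the fit of all 26 rats. Dox and Veh differed by 0.04 (-0.30 to 0.38, p = 0.808). Dox + ABT and Veh differed by -0.37 (-0.71 to -0.03, p = 0.0362) and Dox and Dox + ABT by 0.41 (0.05 to 0.77, p = 0.0278). All 8 Dox + ABT rats were below the Veh median, and the exact permutation test of Dox + ABT against Veh gave p = 0.00361. This difference passed p under 0.01 in a fit of the 2 groups alone (p = 0.00191), with libraries weighted by arrayWeights (-0.50, p = 0.000423) and without Dox 5 (p = 0.00774). That between Dox and Dox + ABT did so without Dox 9 (0.50, p = 0.00738) and within the high-score libraries split at a score of 0 (0.88, p = 0.00417). With the score class as a covariate the differences were -0.10 (p = 0.459) for Dox + ABT against Veh and 0.27 (p = 0.0493) for Dox against Dox + ABT. The values come from transcript models of which 1 held 82.5% and the other 17.5% of the counts, and neither was called.

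The genes whose within-group deviations were most like those of each ligand, over 26 rats and the 12129 genes that averaged 50 normalized counts or more, differed between ligands. For Tgfb3 they were Pik3r2, a regulatory subunit of phosphoinositide 3-kinase (r = 0.77), the adhesion receptor Adgrb2 (r = 0.76) and the sulfotransferase Chst1 (r = 0.76). For Tgfb2 they were Mtdh (r = 0.96), the chromatin remodeller Chd8 (r = 0.95) and the Paf1 complex factor Rtf1 (r = 0.94). For Tgfb1 they were the kinases Tesk1 (r = 0.88) and Brsk1 (r = 0.87) and the membrane protein Wbp1l (r = 0.87). These correlations are descriptions, since genes of 1 rat share its library, depth and score. The score itself correlated at 0.72 with Tgfb2 and 0.70 with Tgfb1.

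**Figure D3:**
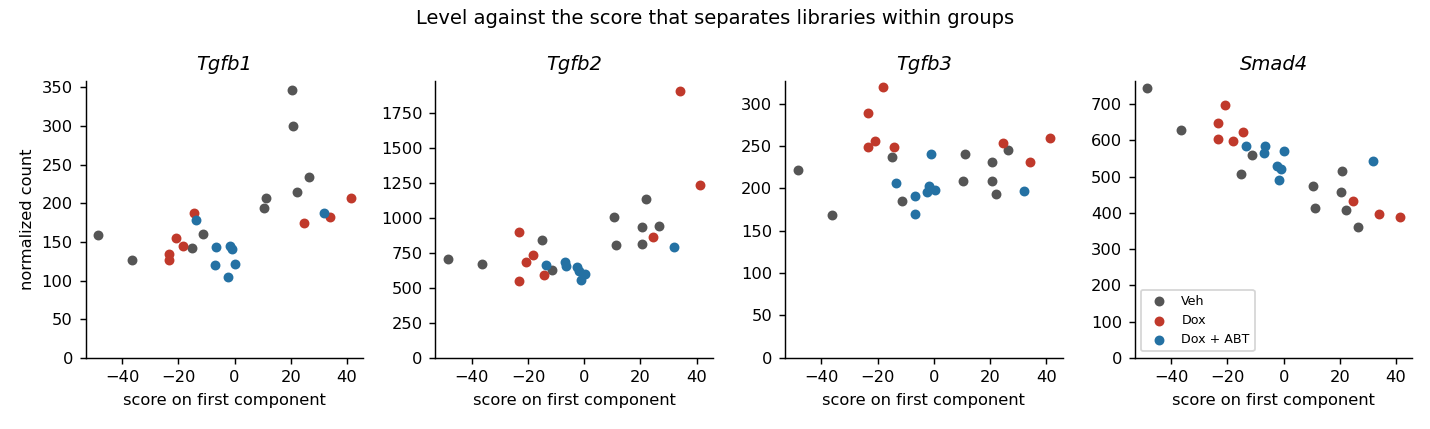
Normalized counts of Tgfb1, Tgfb2, Tgfb3 and Smad4 (y axis) against the score of each library on the first component of within-group deviations (x axis), with 1 point per rat coloured by group. Smad4 goes down with the score (r = -0.89), Tgfb1 (r = 0.70) and Tgfb2 (r = 0.72) go up, and Tgfb3 (r = 0.04) does neither.

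Among the receptors, Tgfbr1, the type I kinase, was lower in Dox than in Dox + ABT. In Veh its lowest, median and highest levels were 348, 452 and 607 normalized counts, beside 287, 399 and 546 in Dox and 384, 556 and 656 in Dox + ABT. All 8 Dox rats lay below the Dox + ABT median and 4 lay below every Dox + ABT rat. The difference was -0.41 (-0.69 to -0.12, limma p = 0.00721, adjusted p = 0.231), or 0.755 times the Dox + ABT level, with p = 0.0196 by the exact permutation test, and -0.40 (p = 0.00927) with the score class as a covariate. The call was lost when any 1 of 9 rats was left out, namely Dox 1, 2, 10 or 14 or Dox + ABT 3, 4, 5, 6 or 11, with differences of -0.40 to -0.34. Dox 2 and Dox 1 were the lowest of the Dox rats, at 287 and 303, and without both the difference was -0.27 (p = 0.0640). Between Dox and Veh the difference was -0.24 (-0.51 to 0.03, p = 0.0810). Within the low-score libraries that difference was -0.59 (-0.92 to -0.27, p = 0.00123), and within the high-score libraries 0.11 (-0.25 to 0.47, p = 0.516). Dox + ABT and Veh differed by 0.17 (-0.11 to 0.44, p = 0.224). Microglia are known to express Tgfbr1 strongly. The median of the microglial sum was 4600 in Dox + ABT and 5088 in Dox, and the part of these cells in the values of Tgfbr1 was not tested.

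Tgfbr2, the type II kinase that binds the ligand, was not called in any comparison. Its lowest, median and highest levels were 69.3, 94.7 and 193 normalized counts in Veh, 59.8, 95.9 and 124 in Dox and 71.5, 90.6 and 114 in Dox + ABT, and the 3 medians lay close together. Dox and Veh differed by -0.23 (-0.64 to 0.18, p = 0.260), and the 2 Dox rats below every Veh rat were Dox 1 and Dox 2, both at 59.8. Dox + ABT and Veh differed by -0.21 (-0.62 to 0.20, p = 0.313), and Dox and Dox + ABT by -0.02 (-0.46 to 0.41, p = 0.909). These were the widest intervals of the 10 genes.

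Tgfbr3, the betaglycan coreceptor that presents Tgfb2, had levels of 204, 275 and 330.1 normalized counts in Veh (lowest, median and highest), 207, 301 and 474 in Dox and 258, 284 and 319 in Dox + ABT. The Dox rats spread on both sides of the others, with 3 above and 3 below every Dox + ABT rat. The difference between Dox and Veh was 0.19 (-0.08 to 0.47, p = 0.166), that between Dox + ABT and Veh 0.09 (-0.18 to 0.37, p = 0.491), while Dox stood at 0.10 against Dox + ABT (-0.19 to 0.39, p = 0.497). Within the low-score libraries Dox was higher than Dox + ABT by 0.35 (0.11 to 0.59, limma p = 0.00726), and within the high-score libraries the difference was -0.30 (p = 0.231), with 1 Dox + ABT rat. In the low-score Dox libraries the rats Dox 1 and Dox 2, at 455 and 474, were the highest, and the other 3 lay at 293 to 330.2. The correlation of Tgfbr3 with the score was -0.72, and with the score class as a covariate Dox + ABT and Veh differed by -0.11 (-0.34 to 0.12, p = 0.354), against the sign above.

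**Figure D4:**
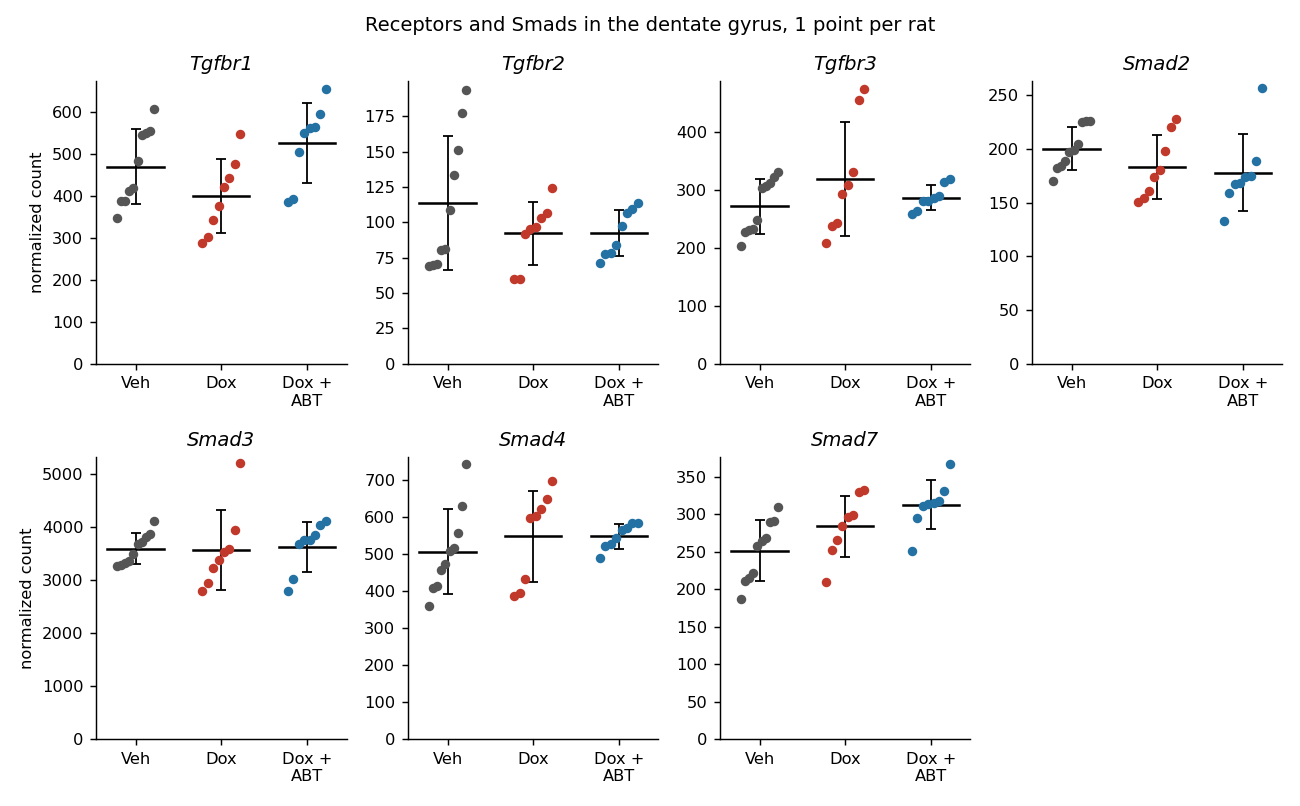
Normalized counts of the 3 receptors and 4 Smads on the y axis, with 1 point per rat, bars at the mean and whiskers of 1 SD in Veh (n = 10), Dox (n = 8) and Dox + ABT (n = 8). Smad7 has 6 of 8 Dox + ABT rats above every Veh rat, and Tgfbr1 has 4 of 8 Dox rats below every Dox + ABT rat.

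Of the Smads, Smad7, the inhibitor that blocks Tgfbr1 and recruits ubiquitin ligases to it, was higher in Dox + ABT than in Veh. The lowest, median and highest levels of Smad7 were 187, 261 and 310.1 normalized counts in Veh, 210.2, 289.9 and 333 in Dox and 251, 314 and 367 in Dox + ABT. In the Dox + ABT group 6 of 8 rats lay above every Veh rat, and the Dox rats lay between, overlapping both. The difference between Dox + ABT and Veh was 0.32 (0.11 to 0.54, limma p = 0.00383, adjusted p = 0.110), or 1.25-fold, with p = 0.00475 by the exact permutation test. As a covariate, the planned split at a score of 0 gave a difference of 0.24 (limma p = 0.0153). With the score class as a covariate it was 0.20 (0.00 to 0.39, p = 0.0461), within the low-score libraries 0.11 (-0.11 to 0.32, p = 0.313), and without Dox + ABT 11 it was 0.29 (p = 0.0110), so that the call was lost in each. Dox and Veh differed by 0.18 (-0.03 to 0.39, p = 0.0961), and Dox and Dox + ABT by -0.15 (-0.37 to 0.08, p = 0.186).

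Smad2 and Smad3, which carry the signal to the nucleus, were not called in any comparison. Smad2 had levels of 171, 198 and 227 normalized counts in Veh, 151, 177 and 228 in Dox and 133, 171 and 257 in Dox + ABT. Its largest difference was that between Dox + ABT and Veh, at -0.19 (-0.41 to 0.03, p = 0.0887), and 4 of the 8 Dox + ABT rats lay below every Veh rat while 1 lay above. Smad3 had levels of 3258, 3586 and 4114 in Veh, 2793, 3457 and 5203 in Dox and 2791, 3756 and 4112 in Dox + ABT. The differences of Smad3 were -0.03 (-0.22 to 0.17) for Dox against Veh, 0.01 (-0.19 to 0.20) for Dox + ABT against Veh and -0.03 (-0.24 to 0.17) for Dox against Dox + ABT. Changes of Smad3 beyond 0.24 on the log2 scale in either direction lie outside all of these intervals.

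Smad4, the partner shared with the BMP branch, was not called either. Its lowest, median and highest levels were 359.9, 490.5 and 744 normalized counts in Veh, 388, 601 and 698 in Dox and 491, 555 and 584 in Dox + ABT. The Dox rats fell into 5 above and 3 below every Dox + ABT rat, and the 3 low ones were the high-score libraries. Dox and Veh differed by 0.11 (-0.15 to 0.37, p = 0.388), Dox + ABT and Veh by 0.14 (-0.12 to 0.40, p = 0.271) and Dox and Dox + ABT by -0.03 (-0.30 to 0.24, p = 0.817). All 8 Dox + ABT rats lay above the Veh median, but with the score class as a covariate the difference from Veh was -0.07 (-0.26 to 0.12, p = 0.429) and within the low-score libraries -0.14 (-0.34 to 0.06, p = 0.162). The correlation of Smad4 with the score, at -0.89, was the furthest from 0 of the 10 genes.

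The wider pathway was read from 95 genes in 5 lists of latency and activation, accessory receptors, Smad regulators, response genes and the BMP, GDF and activin branch. Of these, 89 were tested, since the others averaged under 5 normalized counts or were not among the names. At p under 0.01, 7 were called between Dox and Veh (5 higher and 2 lower in Dox), 4 between Dox + ABT and Veh (1 higher and 3 lower in Dox + ABT) and 7 between Dox and Dox + ABT (4 higher and 3 lower in Dox). These are 7.87%, 4.49% and 7.87% of the 89, beside 2.87%, 7.84% and 4.03% of all genes. The median log2 fold changes of the 89 were 0.03, 0.03 and 0.00, beside 0.00 for all genes in each comparison.

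Of the 19 response genes tested, 5 (26.3%, beside 2.87% of all genes) were called between Dox and Veh, with Fn1, Ccn2, Cdkn1a and Lox higher and Col3a1 lower in Dox, and the other 14 were not. Between Dox and Dox + ABT 4 (21.1%, beside 4.03%) were called, with Fn1, Ccn2 and Cdkn1a higher and Col3a1 lower in Dox. Between Dox + ABT and Veh limma called 0 of 19, beside 7.84% of all genes, with 2 of 19 at an unadjusted p under 0.05, beside 22.5% of all genes. The median of the 19 was 0.02, 0.10 and 0.07 in the same order. Fn1 and Cdkn1a were known from earlier results of these rats, and the study named Cdkn1a.

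Fn1, which encodes the matrix protein fibronectin, had levels of 322, 502 and 1143 normalized counts in Veh (lowest, median and highest), 691, 1329 and 2913 in Dox and 370.3, 548 and 989 in Dox + ABT. Dox was higher than Veh by 1.33 (0.77 to 1.89, limma p = 3.74e-05, adjusted p = 0.0547) and higher than Dox + ABT by 1.23 (0.64 to 1.82, p = 0.000195). Dox 1 and Dox 2 were the highest, at 2913 and 2662, and both calls were kept without either and without both (1.01, p = 0.000738 and 0.91, p = 0.00289). Within the high-score libraries Fn1 stood at 1.10 (p = 0.0126) and 1.18 (p = 0.0792), past the threshold in neither.

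Ccn2, which encodes connective tissue growth factor and whose window is printed above, had levels of 70.9, 133 and 264 in Veh, 131, 311 and 408 in Dox and 84.4, 139 and 213 in Dox + ABT. It was higher in Dox than in Veh by 0.98 (0.45 to 1.51, limma p = 0.000714) and than in Dox + ABT by 0.91 (0.35 to 1.47, p = 0.00238). Of the Dox rats, Dox 1 and Dox 2, at 131 and 143, lay near the medians of the other groups, and without both the differences were 1.31 (p = 1.32e-05) and 1.23 (p = 5.16e-05). Within the low-score libraries the differences were 0.98 (p = 0.0133) and 0.83 (p = 0.0160), and both calls were lost. The call against Dox + ABT was also lost within the high-score libraries, at 1.04 (p = 0.0880).

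Lox, the lysyl oxidase that crosslinks collagen, had levels of 28.4, 46.5 and 61.2 in Veh, 51.4, 56.2 and 97.6 in Dox and 39.7, 47.1 and 59.0 in Dox + ABT. It was higher in Dox than in Veh by 0.49 (0.19 to 0.78, limma p = 0.00207), and the ranges overlapped. With each gene represented by its highest transcript row the difference was 0.48 and the call was lost (p = 0.0144), as it was within the high-score libraries, at 0.20 (p = 0.335), and without both Dox 1 and Dox 2, at 0.41 (p = 0.0138).

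Cdkn1a, which encodes the cell cycle inhibitor p21, had levels of 30.8, 55.4 and 91.0 in Veh, 62.2, 79.6 and 530.3 in Dox and 33.5, 65.0 and 80.7 in Dox + ABT. Dox 1 and Dox 2, at 510.4 and 530.3, stood apart from the other 6 Dox rats, whose highest was 109. Dox was higher than Veh by 1.20 (0.45 to 1.94, limma p = 0.00270) and than Dox + ABT by 1.10 (0.32 to 1.89, p = 0.00768). The call against Dox + ABT was lost without Dox 1 (0.81, p = 0.0252) or without Dox 2 (0.80, p = 0.0251), and also without Dox + ABT 3, 5 or 6. Without both Dox 1 and Dox 2 neither call held, at 0.51 (p = 0.0378) against Veh and 0.42 (p = 0.101) against Dox + ABT. Within the high-score libraries, which do not include Dox 1 and Dox 2, both calls were lost, at 0.55 (p = 0.125) against Veh and 0.16 (p = 0.770) against Dox + ABT.

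Col3a1, a fibrillar collagen of fibroblasts and vessel walls, went the other way. Its levels were 11.9, 22.5 and 61.1 in Veh, 3.79, 8.34 and 18.8 in Dox and 16.9, 28.2 and 75.5 in Dox + ABT. It was lower in Dox than in Veh by -1.40 (-1.99 to -0.81, limma p = 4.21e-05, adjusted p = 0.0547) and than in Dox + ABT by -1.62 (-2.24 to -0.99, p = 1.17e-05, adjusted p = 0.0609), and both calls were kept without each rat in turn. Within the high-score libraries both were lost, at -0.86 (p = 0.0230) and -1.13 (p = 0.0581). The direction of Fn1 and that of Col3a1 thus differed within the same list.

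**Figure D5:**
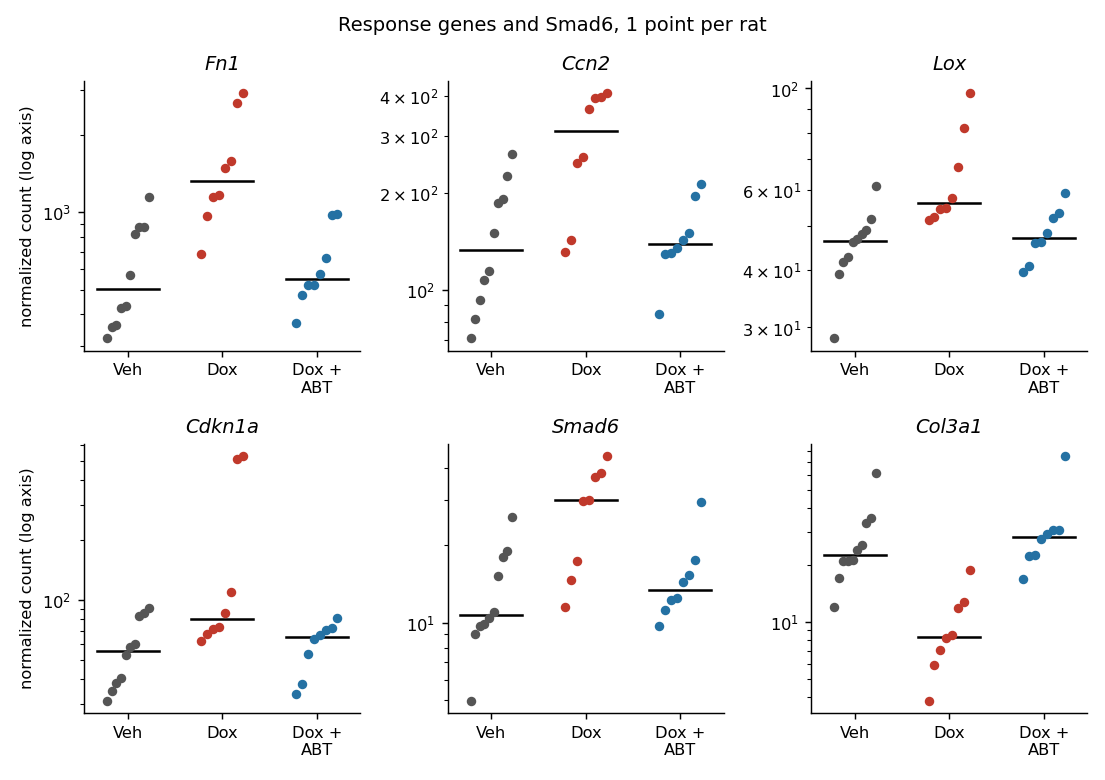
Normalized counts on a log axis (y) for 5 response genes and Smad6, with 1 point per rat and a bar at the group median in Veh (n = 10), Dox (n = 8) and Dox + ABT (n = 8). Cdkn1a has 2 Dox rats above 500 normalized counts, and Col3a1 is the gene of the 6 that is lower in Dox.

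Of all genes tested, 1.02% were called higher and 1.85% lower in Dox than in Veh. Against Dox + ABT 2.32% of all genes were higher in Dox and 1.71% lower. Beside these shares and the response genes, markers of the cells that make matrix gave the values below. The summed level of 6 endothelial markers was 1225 to 4113 in Veh, 1385 to 3042 in Dox and 1179 to 2668 in Dox + ABT, with 1 higher and 1 lower in Dox than in Veh and 1 lower in Dox than in Dox + ABT. The 6 mural markers ranged from 1274 to 2060, 1287 to 1792 and 1179 to 1696, with 0 called between Dox and Veh or between Dox and Dox + ABT. The 8 meningeal fibroblast markers ranged from 178 to 366, 203 to 302 and 229.9 to 509, with 1 of 6 tested lower in Dox in each of its comparisons and all 6 log2 differences from Dox + ABT below 0. The 6 listed choroid plexus markers ranged from 14.6 to 357 over all rats, and 4 of them were at 0 in some rat. The astrocyte sum was 45880 to 73017 in Veh, 42071 to 49541 in Dox and 44581 to 66291 in Dox + ABT, with 3 of 6 markers lower in Dox than in Veh and 1 lower than in Dox + ABT. The oligodendrocyte sum was 40481 to 114450, 44796 to 69068 and 47177 to 100673, with 1 of 6 markers lower in Dox in each comparison. Their part in the response genes was not tested.

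Among the 16 Smad regulators tested, 2 (12.5%, beside 2.87% of all genes) were called, both between Dox and Veh. Smad6, the inhibitor that acts mainly on the BMP branch, had levels of 4.95, 10.7 and 25.8 normalized counts in Veh, 11.5, 29.9 and 44.6 in Dox and 9.69, 13.5 and 29.5 in Dox + ABT, and was higher in Dox by 1.002 (0.42 to 1.58, limma p = 0.00142). Tgif2, a corepressor that binds Smads, had levels of 36.9, 44.0 and 54.8 in Veh, 21.2, 31.8 and 43.7 in Dox and 31.3, 37.7 and 48.7 in Dox + ABT, and was lower in Dox by -0.56 (-0.87 to -0.25, p = 0.000826). Both directions held with the score class as a covariate, at 0.99 (p = 0.00201) and -0.56 (p = 0.00126), while within the high-score libraries the calls were lost, at 0.49 (p = 0.275) and -0.33 (p = 0.225). Without both Dox 1 and Dox 2 the call of Smad6 was lost, at 0.78 (p = 0.0150), and that of Tgif2 was kept, at -0.48 (p = 0.00607). Skil, Nedd4l and Crebbp were not called in any comparison, with differences between Dox and Veh of 0.22, 0.13 and 0.24.

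Among the 15 latency genes tested, 2 (13.3%, beside 4.03% of all genes) were called, both between Dox and Dox + ABT. Ltbp1, which tethers latent TGF-beta to the matrix, had levels of 12.3, 21.7 and 42.1 in Veh, 2.35, 16.2 and 24.3 in Dox and 15.9, 28.0 and 39.0 in Dox + ABT, and was lower in Dox by -0.94 (-1.58 to -0.31, limma p = 0.00503). Without Dox 2, its lowest rat, the difference was -0.64 and the call was lost (p = 0.0115), as it was without Dox 14 or Dox + ABT 4, and without both Dox 1 and Dox 2 (-0.58, p = 0.0270). Lrrc32, the cell-surface anchor GARP, was higher in Dox by 1.03 (0.27 to 1.79, p = 0.00990), with levels of 18.8, 32.1 and 122 in Dox and 7.23, 19.9 and 47.0 in Dox + ABT, and this call was lost when any 1 of 18 rats was left out. Dox 1 and Dox 2, at 122 and 106, stood above the other 6 Dox rats, which lay at 18.8 to 41.5 and overlapped the Dox + ABT rats, and without both the difference was 0.53 (p = 0.119). Furin, the protease that cleaves the ligand precursors, was not called, at 0.36 (0.07 to 0.65, limma p = 0.0162) for Dox against Veh, and Ltbp3 and Fbn1 differed by -0.28 and 0.56. For Fbn1 too Dox 1 and Dox 2 were the highest, at 3021 and 2740 normalized counts, and the other 6 Dox rats lay at 567 to 1530.

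Of the 8 accessory receptors, 1 (12.5%, beside 7.84% of all genes) was called in Dox + ABT against Veh, namely Pmepa1, a membrane inhibitor of Smad signalling. It had levels of 414, 765 and 1254 normalized counts in Veh, 361, 568 and 2147 in Dox and 370.2, 427 and 617 in Dox + ABT. The difference was -0.74 (-1.28 to -0.20, limma p = 0.00925), and -0.25 (p = 0.167) with the score class as a covariate. As a covariate, the planned split at a score of 0 gave -0.41 (limma p = 0.0309). The call was lost when any 1 of 16 rats was left out. Eng, Sdc2 and Ldlrad4 were not called, with differences between Dox and Veh of 0.28, -0.21 and -0.23.

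Of the 31 genes of the BMP, GDF and activin branch, 3 (9.68%, beside 7.84% of all genes) were called between Dox + ABT and Veh. The ligands Bmp4 and Bmp7 were lower in Dox + ABT by -0.61 (-1.04 to -0.18, limma p = 0.00732) and -0.60 (-1.03 to -0.17, p = 0.00775), and Inha, the inhibin alpha subunit, was higher by 0.55 (0.16 to 0.94, p = 0.00724). As a covariate, the planned split at a score of 0 gave differences of -0.39, -0.46 and 0.38 (limma p = 0.0298, 0.0295 and 0.0302). With the score class as a covariate they were -0.29 (p = 0.108), -0.40 (p = 0.0659) and 0.25 (p = 0.113), a setting in which calls over all genes went from 1222 to 214, and each call was also lost when any 1 of 9 or 10 rats was left out. Chrdl1, a secreted BMP antagonist, was lower in Dox than in Dox + ABT by -0.60 (-0.94 to -0.25, p = 0.00152), with levels of 43.8, 68.9 and 105 in Dox and 69.6, 101 and 145 in Dox + ABT, and -0.55 (p = 0.00297) under the covariate. Within the low-score libraries this call was lost, at -0.36 (p = 0.0456). Bmp6 and Dcn were not called, at -0.29 (p = 0.0330) and -0.57 (p = 0.0233) for Dox against Veh.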

How the data were processed

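RNA-seq of the dentate gyrus was deposited as 26 columns of normalized counts, 1 per rat, all of which were mapped to samples (0 columns unmapped). The authors selected poly(A) RNA, sequenced on an Ion Proton instrument, aligned reads to rn6 with STAR 2.5.3a in Partek Flow, and tested with DESeq2. The deposited values are a signal, counts that the authors divided by Median Ratio factors, and not raw counts. Low values of genes with 1 transcript row were whole multiples of 1 read, within 0.02, for only 74.3% to 80.6% per library, so no count test was run and a test on the log scale replaced the planned one where it assumed counts.

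Rows were summed by gene ID. The 15595 genes that averaged 5 normalized counts or more were tested on log2(value + 1) with the limma package (version 3.58.1, R 4.3.3; linear model, contrasts and trended empirical Bayes), two-sided, with all 26 rats and no covariate. Fold changes on this scale understate those of low genes. Genes were called at p under 0.01, the threshold of the study, and adjusted p-values are Benjamini-Hochberg values over all tested genes. Two-sided exact permutation tests used means of log2 values. The score class came from the widest gap in the first component of within-group deviations, over genes that averaged 20 or more, and was chosen after seeing the data. A split by the sign of the score was planned.

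The 10 genes, the pathway and cell type lists and the rule for named genes were chosen with earlier results of these data known. Named were all 10 genes, every pathway gene at p under 0.01 in any comparison, the 3 genes of each pathway list with the smallest p between Dox and Veh that averaged 50 or more, and the 3 genes most correlated with each ligand. The fit was tested on simulated data. Alternatives covered the pseudocount, filter, variance model, library weights, scaling, transcript rows, replicate number, score, leaving out each rat and leaving out both Dox 1 and Dox 2. Nothing in the sources used here ties the replicate numbers to shared litters or days. Reads per library were estimated from the smallest step between low values. Figures used Python and matplotlib.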

Additional observations from a re-analysis of the deposited data

Results flagged for a closer look

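In 4 of 105 groups of rats 1 rat stood apart from the others by Dixon's test on log2 values, where chance would mark about 1 in 20 groups, or 5.25 of 105. None of the 30 groups of the 10 ligand, receptor and Smad genes was among them. For Ltbp1 in Dox the rat Dox 2 was lowest, at 2.35 normalized counts with the next at 9.10, and its gap was 0.546 of the range. For Ltbp3 in Veh the rat Veh 10 was lowest, at 318 with the next at 499, a gap of 0.599 of the range. For Fbn1 in Dox + ABT the rat Dox + ABT 4 was lowest, at 833 with the next at 1236, a gap of 0.564. For Col3a1 in Dox + ABT the rat Dox + ABT 3 was highest, at 75.5 with the next at 30.6, a gap of 0.607.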

How the results depend on the processing

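The fits were repeated under 20 other settings, 5 of them (the split of libraries at the gap, as a covariate and within each class, the score as a covariate, and Dox 1 and Dox 2 left out) chosen after seeing the data, and without each rat. Tgfb3 kept its sign in all of them, at 0.17 to 0.43 for Dox against Veh and 0.32 to 0.44 for Dox against Dox + ABT. In what follows, low-score and high-score libraries are split at the gap, and by sign means split at a score of 0. The score as a covariate sums to 0 within each group, so it left every difference as it was and lowered only the residual variance, and its counts say nothing about the differences. The cause of the other changes was not tested. Calls over all 15595 genes moved too. Between Dox and Veh they went from 448 to 3150 under arrayWeights, 1298 with the score as a covariate, 181 without both Dox 1 and Dox 2 and 742 within the low-score libraries at the gap. They were 544 within the high-score libraries by sign, 266 to 707 without 1 rat and 524 without Dox 5. Between Dox + ABT and Veh they went from 1222 to 5297 under arrayWeights and 2780 with the score as a covariate, and to 527 (by sign) and 214 (at the gap) with the score class as a covariate and 172 within the low-score libraries at the gap. They were 1260 under upper quartile scaling, 1869 within the high-score libraries by sign and 695 to 2130 without 1 rat. Without Veh 1, 2, 9 or 12 they were 760, 788, 696 and 900, and without Dox + ABT 4 they were 1832. Between Dox and Dox + ABT they went from 629 to 1612 under arrayWeights and 1281 within the low-score libraries at the gap. They were 704 with the 2 compared groups alone, 463 without both Dox 1 and Dox 2 and 928 within the high-score libraries by sign. Leaving out 1 rat gave 419 to 787, with 449 without Dox 2. The settings within the high-score libraries rest on 6 Veh, 3 Dox and 1 Dox + ABT rats at the gap, so the lone rat is assumed to vary like the others.

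Of the 10 genes, the number called between Dox and Veh (1) was 4 under arrayWeights, which adds Tgfbr3, Smad4 and Smad7, 2 within the low-score libraries under both splits and 0 within the high-score libraries under both and without both Dox 1 and Dox 2. That between Dox + ABT and Veh (2) was 0 with either score class as a covariate and within the low-score libraries, and 1 by sign or 0 at the gap within the high-score libraries. That between Dox and Dox + ABT (2) was 1 by sign and 0 at the gap within the high-score libraries, and 1 without both Dox 1 and Dox 2. Leaving out 1 rat gave 1 to 3 calls in each of the last comparisons. The pathway genes called between Dox and Veh (7) were 24 under arrayWeights, 12 within the low-score libraries, 16 with the score as a covariate and 7 to 11 without 1 rat, the highest without Dox 5. Those between Dox + ABT and Veh (4) were 23 under arrayWeights, 2 under upper quartile scaling, 1 with either score class as a covariate, 1 by sign and 0 at the gap within the low-score libraries, 7 by sign within the high-score libraries, 9 with the score as a covariate and 0 to 7 without 1 rat, 0 without Veh 1, 2, 9 or 12 and 7 without Dox + ABT 4. Those between Dox and Dox + ABT (7) were 15 under arrayWeights, 4 with the 2 compared groups alone, 12 within the low-score libraries at the gap and 4 to 9 without 1 rat, the lowest without Dox 2.

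Every change of sign concerned a difference that was not called. For Dox against Veh, within the low-score libraries Tgfb1 was 0.019 and Tgfb2 -0.058, and within the high-score libraries Tgfbr1 was 0.11, Tgfbr2 0.0055, Tgfbr3 -0.082 and Smad4 -0.10, under both splits. Under arrayWeights Tgfb2 was -0.36, Tgfbr2 0.10 and Smad3 0.091. For Dox + ABT against Veh, within the low-score libraries (by sign and at the gap) Tgfbr1 was -0.13 and -0.10, Tgfbr3 -0.15 and -0.12, Smad3 -0.080 and -0.062 and Smad4 -0.15 and -0.14. As a covariate, the classes gave -0.030 and -0.11 for Tgfbr3 and -0.016 and -0.037 for Smad3, and the gap gave -0.075 for Smad4. Tgfbr2 was 0.15 and 0.20 within the high-score libraries and 0.0098 under arrayWeights. For Dox against Dox + ABT, within the low-score libraries Smad2 was -0.042 and -0.022, Smad3 0.051 and 0.033 and Smad4 0.22 and 0.21. Within the high-score libraries Tgfbr3 was -0.38 and -0.30, and Tgfb1 at the gap -0.0027. Smad4 was 0.018 and 0.083 with the classes as a covariate and 0.076 with its highest transcript row. Under arrayWeights Tgfbr2 was 0.095, Smad3 0.050 and Smad4 0.10, and under quantile normalization Tgfbr2 was 0.0040. Without both Dox 1 and Dox 2, Tgfbr3 was -0.0085 and Smad3 0.037 for Dox against Veh, and Tgfbr2 was 0.17, Tgfbr3 -0.10 and Smad3 0.030 for Dox against Dox + ABT. Without 1 rat, the ranges that crossed 0 were -0.0051 to 0.13 for Smad2, -0.11 to 0.013 for Smad3, -0.086 to 0.035 for Smad4 and -0.091 to 0.058 for Tgfbr2 in Dox against Dox + ABT, -0.11 to 0.021 for Smad3 and -0.12 to 0.13 for Tgfb2 in Dox against Veh, and -0.020 to 0.060 for Smad3 in Dox + ABT against Veh.

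The deviations of same-numbered rats of different groups had correlations of -0.17 to 0.30, and 1 rat in all correlated best with its own number. The groups shared only 5, 8 and 3 numbers in the 3 comparisons, which is too few to settle whether the numbers pair the rats. With the replicate block the 10 genes had 0, 1 and 1 calls in the 3 comparisons, and pathway genes 11 between Dox and Veh and 2 between Dox + ABT and Veh. Over all genes the block gave 765, 1180 and 403 calls, beside 448, 1222 and 629 in the main fit. Tgfb3 was 0.30 (limma p = 0.0201) for Dox against Veh, and Ccn2 was 0.53 (p = 0.0415) for Dox against Dox + ABT, down from 0.91. For Dox against Dox + ABT Smad2 was -0.068 and Smad4 0.093 under the block. Calls also lost under it included Lox (0.50, limma p = 0.0107) for Dox against Veh. For Dox + ABT against Veh they included Tgfb1 (-0.49, p = 0.0120), Bmp4 (-0.64, p = 0.0223) and Inha (0.51, p = 0.0142).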

Other observations

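The ratio of Tgfb3 to Tgfb1 within a rat, a comparison of a rat with other rats and not of the levels of both genes, had a lowest, median and highest value of 0.669, 1.12 and 1.67 in Veh, 1.25, 1.56 and 2.28 in Dox and 1.05, 1.49 and 1.87 in Dox + ABT. The medians of both doxorubicin groups lay above that of Veh, and the ranges overlapped. The log2 differences from Veh were 0.30 for Tgfb3 and -0.29 for Tgfb1 in Dox, and -0.09 and -0.50 in Dox + ABT, and Tgfb1 varied with the score of the libraries.

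Within groups, the deviations of Tgfb3 and Tgfbr1 had a correlation of -0.62 over 26 rats and of -0.57 over the 16 low-score libraries. Dox 1 and Dox 2 were the 2 highest Dox rats for Tgfb3 and the 2 lowest for Tgfbr1, and without both the correlation was -0.52 over 24 rats. Those of Tgfbr3 and Smad4 had a correlation of 0.79 over 26 rats and of 0.15 over the low-score libraries. The points share library, depth and score, and no test was made.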
